A study of Arabidopsis thaliana with 36 samples.

Results

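AOP3 (locus AT4G03050) encodes an oxoglutarate-dependent dioxygenase of glucosinolate metabolism, and its level was followed in roots and shoots of Kas-1 and Tsu-1, natural Arabidopsis thaliana lines called Kas and Tsu here. It is measured by 1 probe set, 255471_at, the only one of 22746 tested probe sets that the array's annotation assigns to AOP3, and that probe set names no other gene. The gene was chosen by its measured values in these same arrays, namely its difference between the ecotypes, so its levels by ecotype and tissue are given as a description with no test. Its response to iron deficiency and the other genes of the pathway were tested.

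Glucosinolates are sulfur-containing defence compounds of the cabbage order, stored in intact tissue and split by myrosinases when the tissue is damaged. Aliphatic glucosinolates are made from methionine by elongation of the side chain, assembly of the core and late changes to the side chain. AOP3 acts in that late step, where it turns methylsulfinylalkyl into hydroxyalkyl glucosinolates. Its close relative AOP2 makes alkenyl forms from the same precursors, and natural Arabidopsis lines are known to differ in which of the enzymes they express. AOP3 lies on chromosome 4 in a cluster with AOP2 and AOP1.

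The plants were 24 d old and had grown in hydroponics on complete medium. They then stayed without iron for 24 h or 48 h, or were given Fe(III)-EDDHA at 50 µM over 24 h, called complete medium here. The 12 groups of 3 arrays were thus Kas and Tsu roots and Kas and Tsu shoots, each without iron for 24 h, without iron for 48 h and on complete medium for 24 h. Because no complete-medium group was taken at 48 h, lack of iron and the longer time cannot be told apart there. The labels do not state whether the 3 arrays per group are separate plants or cultures. The p-values therefore rest on variation among these samples alone, possibly technical.

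The sample titles name roots and shoots, while the extraction protocol names whole rosettes for all samples, so the tissue was checked with markers. The 2 measured photosystem genes (PSAN and PSAE-1, of 14 listed) averaged 3.16 to 4.89 on the log2 scale in root arrays, against 11.8 to 12.2 in shoot arrays. The 3 root markers (EXPA7, EXPA18 and PYK10) averaged 7.60 to 8.64 in root arrays, against 4.00 to 4.68 in shoot arrays. Every array matched the tissue in its title by both lists. By ecotype, not every array lay near the level of its label. An ecotype index was built for each tissue from 300 probe sets with the largest separation of Kas from Tsu after 48 h without iron, AOP3 not among them, with 0 as the mean Tsu level and 1 as the mean Kas level. Of the 36 arrays, 12 lay between the ecotypes (index over 0.2 and under 0.8), 9 of the 18 root arrays and 3 of the 18 shoot arrays. They were 1 Kas root array without iron at 24 h, 2 Kas root arrays on complete medium, all 6 Tsu root arrays of those conditions and all 3 Tsu shoot arrays without iron at 24 h. Without these arrays, 2 groups of roots and 1 of shoots in Tsu would be empty, so among the results that rest on them a fit without them exists for the iron comparisons of Kas roots alone. The 48 h arrays set the scale and cannot be read on it. The other arrays differ from them in time, and some also in iron, so the index mixes these with ecotype. Why arrays lay between the ecotypes was not tested.

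In shoots, AOP3 was bright in every Tsu array and dim in every Kas array. After 24 h without iron its log2 level was 3.18, 3.05 and 3.06 in Kas shoots, against 8.94, 8.39 and 8.90 in Tsu shoots. At 48 h without iron the level was 3.12, 2.97 and 3.14 in Kas shoots, against 10.47, 10.35 and 10.29 in Tsu shoots. On complete medium it was 3.39, 3.02 and 3.03 in Kas shoots, against 10.16, 9.99 and 9.90 in Tsu shoots. The ecotypes did not overlap under any of the conditions, and the highest of 9 Kas shoot arrays (3.39) lay far under the lowest of 9 Tsu shoot arrays (8.39). The group means were 3.10 ± 0.077, 3.08 ± 0.094 and 3.15 ± 0.21 in Kas shoots after 24 h and 48 h without iron and on complete medium (SD, n = 3 each). The means of Tsu shoots were 8.75 ± 0.31, 10.37 ± 0.090 and 10.02 ± 0.13 in the same order (SD, n = 3 each).

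As Kas minus Tsu, the shoot differences were -5.65, -7.29 and -6.87 on the log2 scale in that order of conditions. These correspond to levels 50.2-fold, 157-fold and 117-fold higher in Tsu. By absolute size, AOP3 ranked at place 3, 3 and 4 among the 22746 probe sets. Across all probe sets, limma called 20.2%, 36.7% and 33.2% as different between Kas and Tsu shoots in those conditions (adjusted p under 0.05, either direction). Those shares are the background of ecotype differences in shoots, and nothing is read from AOP3's place in them, since the gene was chosen for this contrast. In bulk tissue, fewer cells that hold a transcript and less transcript per cell cannot be told apart. The array's probes follow a reference sequence, and a lower transcript level and a poorer match of the Kas transcript to the probes cannot be told apart from these values either.

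In roots, AOP3 was again lower on average in Kas, but by less and with overlap between the ecotypes. After 24 h without iron its log2 level was 6.33, 3.06 and 2.82 in Kas roots, against 5.97, 5.0 and 6.09 in Tsu roots. At 48 h without iron it was 3.11, 3.88 and 3.44 in Kas roots, against 6.96, 6.88 and 7.55 in Tsu roots. On complete medium it was 2.96, 6.39 and 6.58 in Kas roots, against 6.36, 7.53 and 6.75 in Tsu roots. The ecotypes were apart at 48 h, and overlapped in the other conditions because 1 and 2 Kas arrays stood near the Tsu level. Those 3 Kas root arrays, the only ones of 9 above 5, are the same 3 whose ecotype index lay between the ecotypes (0.548, 0.508 and 0.541). Over all 9 arrays the median was 3.44 in Kas roots, with a range from 2.82 to 6.58, against 6.75 in Tsu roots, with a range from 5.0 to 7.55.

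**Figure D1:**
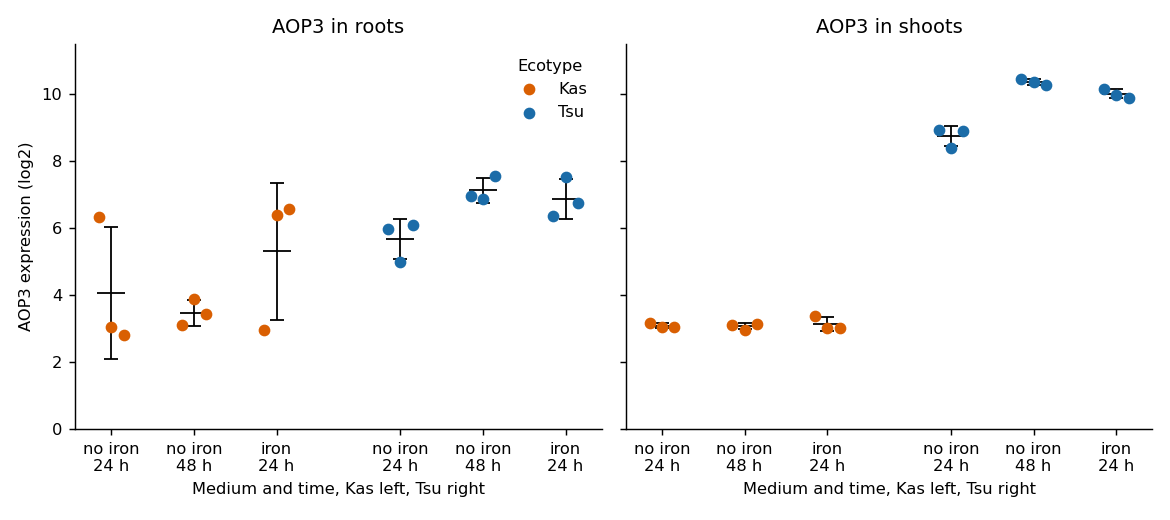
AOP3 log2 level in each of the 36 arrays, by tissue, ecotype, medium and time, with points for arrays and lines for group means (n = 3). Kas and Tsu shoots are fully apart (highest Kas 3.39, lowest Tsu 8.39), while 3 Kas root arrays, all between the ecotypes by their index, lie at 6.33, 6.39 and 6.58.

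As Kas minus Tsu, the root differences were -1.62 after 24 h without iron, -3.65 after 48 h without iron and -1.57 on complete medium, which correspond to levels 3.06-fold, 12.6-fold and 2.97-fold higher in Tsu. With group medians in place of means they were -2.91, -3.52 and -0.36. Leaving out single arrays moved the 24 h difference without iron between -2.75 and -0.99. The difference of -2.75 was that without Kas replicate 1. On complete medium it moved between -2.20 and -0.39, the last also without Kas replicate 1. Across all probe sets, 11.4%, 24.7% and 9.86% were called as different between Kas and Tsu roots in those conditions, from which nothing is read about AOP3.

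Between tissues, AOP3 was brighter in shoots than in roots of Tsu, while the tissues of Kas overlapped. In Tsu, roots minus shoots was -3.06 after 24 h without iron, -3.24 after 48 h without iron and -3.14 on complete medium, on the log2 scale. The level in Tsu shoots was thus 8.33-fold, 9.45-fold and 8.79-fold above that in Tsu roots, with no overlap of the 3 arrays on each side. In Kas, roots minus shoots was 0.98, 0.40 and 2.17 in the same order, and roots and shoots overlapped in every condition. The Kas difference at 24 h without iron came to -0.16 without Kas root replicate 1, an array between the ecotypes. No test is given for these differences.

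In order of mean level, the 3 Tsu shoot groups came first, with 48 h without iron (10.37) above complete medium (10.02) and 24 h without iron (8.75), none overlapping the next. Tsu roots followed, at 7.13 after 48 h without iron and 6.88 on complete medium, which overlapped, and then 5.69 after 24 h without iron, which lay below both without overlap. Kas roots on complete medium (5.31), after 24 h (4.07) and after 48 h without iron (3.48) came next. The Kas shoot groups (3.15, 3.10 and 3.08) were last. From Tsu roots at 24 h without iron downward, each group overlapped its neighbour in the order. Groups farther apart could still be distinct, as Tsu roots at 24 h without iron lay above all Kas roots at 48 h without iron and all Kas shoots.

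The 12 arrays between the ecotypes were then read for AOP3 itself, on a scale where 0 is the mean Tsu level and 1 the mean Kas level after 48 h without iron in that tissue. Among Kas roots, the array between the ecotypes at 24 h without iron (replicate 1) had an AOP3 position of 0.218 at an index of 0.548. The complete-medium arrays (replicates 2 and 3) had positions of 0.202 and 0.15 at indices of 0.508 and 0.541. In each of these Kas arrays, AOP3 stood nearer to the Tsu end than the index did, on this log2 scale.

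Tsu roots at 24 h without iron had AOP3 positions of 0.318, 0.583 and 0.285 at indices of 0.436, 0.639 and 0.380. Tsu roots on complete medium had positions of 0.210, -0.109 and 0.104 at indices of 0.384, 0.238 and 0.440. Tsu shoots at 24 h without iron had positions of 0.196, 0.271 and 0.201 at indices of 0.427, 0.512 and 0.422. The AOP3 position was thus below the index in 12 of 12 arrays on the log2 scale. On the linear scale, computed for AOP3 and index alike and chosen after seeing the data, it was below in 5 and above in 7. The 5 included the 3 Kas root arrays, at linear positions of 0.474, 0.448 and 0.360 against linear indices of 0.583, 0.581 and 0.617. The median absolute gap was 0.236 on the log2 scale and 0.141 on the linear scale. The largest gap was 0.390 on the log2 scale and 0.579 on the linear scale. How often other probe sets lie below the index was not counted, so nothing particular to AOP3 is read from these positions.

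**Figure D2:**
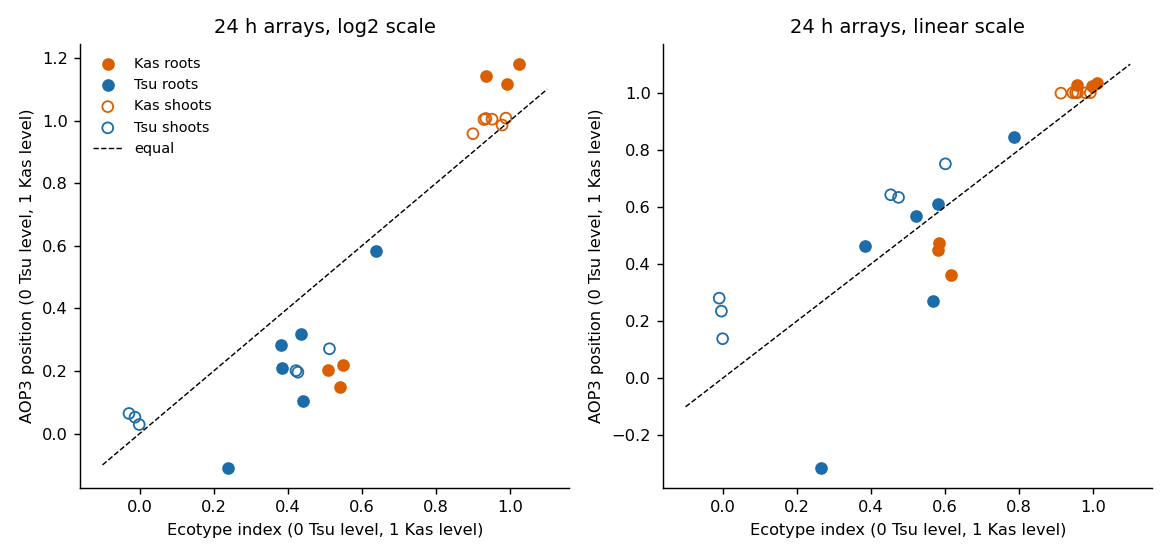
AOP3 position against the ecotype index for the 24 h arrays, roots and shoots, on the log2 scale and on the linear scale, where 0 is Tsu and 1 is Kas after 48 h without iron and the diagonal marks equal values. On the log2 scale the 12 arrays with an index of 0.238 to 0.639 lie below the diagonal, while on the linear scale 5 lie below it and 7 above.

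Iron deficiency was compared with complete medium within each ecotype and tissue. AOP3 was lower in Tsu shoots after 24 h without iron, in arrays that all lie between the ecotypes, and passed the test in none of the other 7 comparisons. In Tsu shoots the means were 8.75 ± 0.31 after 24 h without iron and 10.02 ± 0.13 on complete medium (SD, n = 3 each), a log2 change of -1.27 (SE 0.14, 95% interval -1.56 to -0.98, limma adjusted p = 1.34e-06), or 2.41-fold lower, with all 3 arrays without iron below all 3 on complete medium. In that comparison 16.1% of all probe sets were called. The 3 arrays without iron are all between the ecotypes (index 0.422 to 0.512), while the 3 on complete medium had indices of -0.029 to -0.001. A gene chosen for a higher level in Tsu would read lower in such arrays. This test therefore cannot set a response to iron apart from the choice of the gene. With the index as a covariate the change was 0.30 (limma adjusted p = 0.99). The index sets these groups wholly apart, so the covariate cannot be told from the contrast and nothing is read from that value. In 1 fit of all 36 arrays the change was -1.27 (limma adjusted p = 0.228). That fit shares 1 spread between shoots (SE 0.14 in their own fit) and roots (SE 0.85). No fit without the arrays between the ecotypes exists, since they are the whole group.

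AOP3 in Tsu shoots after 48 h without iron differed from complete medium by 0.35 (SE 0.14, 95% interval 0.07 to 0.64, limma adjusted p = 0.165), where 4.34% of probe sets were called. All 3 arrays without iron lay above all 3 on complete medium, but the change did not pass the test over all probe sets. In Kas shoots the changes were -0.05 at 24 h (95% interval -0.34 to 0.24, limma adjusted p = 0.918, 1.86% of probe sets called) and -0.07 at 48 h (-0.35 to 0.22, limma adjusted p = 0.876, 4.11% called). The Kas shoot groups overlapped throughout. The difference between the ecotypes in the shoot response, Kas change minus Tsu change, was 1.22 at 24 h (SE 0.19, 95% interval 0.82 to 1.62, limma adjusted p = 0.000241), where 11.2% of probe sets were called. It rests on the same 3 Tsu arrays between the ecotypes, was -0.31 with the index as a covariate (limma adjusted p = 0.974), and was 1.22 in the fit of all 36 arrays (limma adjusted p = 0.52). Kas shoots read 2.97 to 3.39, close to the lower quartile of the arrays (2.72 to 3.05), so a fall could hardly show there. The difference in response therefore mostly restates the Tsu change. At 48 h it was -0.42 (95% interval -0.83 to -0.02, limma adjusted p = 0.262, 3.94% called).

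In roots no change of AOP3 without iron passed the test, and the spread between arrays was wide (SE 0.85 for each). The log2 changes in Kas roots were -1.24 at 24 h (95% interval -3.03 to 0.55, limma adjusted p = 0.58) and -1.83 at 48 h (-3.62 to -0.04, limma adjusted p = 0.209), with 1.94% and 6.73% of probe sets called. Leaving out single arrays, the 24 h change ran from -2.42 (without complete-medium replicate 1) to -0.61, and passed the test in none of those fits. Without the arrays between the ecotypes, complete medium keeps 1 array, which is then assumed to vary like the other groups. That fit gave -0.020 at 24 h (limma adjusted p = 0.988) and 0.52 at 48 h (limma adjusted p = 0.381). With the index as a covariate the 48 h change was 0.56, from which nothing is read, since the 48 h arrays set the index scale. Without complete-medium replicate 1 the 48 h change was -3.01 and passed the test (limma adjusted p = 0.0332). That array, at 2.96, is the only Kas root array on complete medium that was not between the ecotypes, so the Kas root values depend on which arrays enter.

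In Tsu roots the changes were -1.19 at 24 h (95% interval -2.98 to 0.60, limma adjusted p = 0.415) and 0.25 at 48 h (-1.54 to 2.04, limma adjusted p = 0.911), with 6.98% and 1.62% of probe sets called. At 24 h all 3 arrays without iron lay below all 3 on complete medium, without passing the test, and all 6 arrays lie between the ecotypes. With the index as a covariate the 24 h change was -0.26 (limma adjusted p = 0.626). With it the 48 h change was -2.38 (limma adjusted p = 0.00268), the opposite direction. The 48 h arrays set the index scale and lie at its ends by construction, so the covariate cannot be set apart from their group. Nothing is read from that value. The ecotype difference in the root response was -0.05 at 24 h (SE 1.20, limma adjusted p = 0.987, 5.04% called) and -2.08 at 48 h (95% interval -4.61 to 0.45, limma adjusted p = 0.281, 7.94% called). With the index as a covariate the 48 h difference was 2.94 (limma adjusted p = 0.0289), from which nothing is read for the same reason. Without Kas complete-medium replicate 1 the 48 h difference was -3.26 (limma adjusted p = 0.0553).

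**Figure D3:**
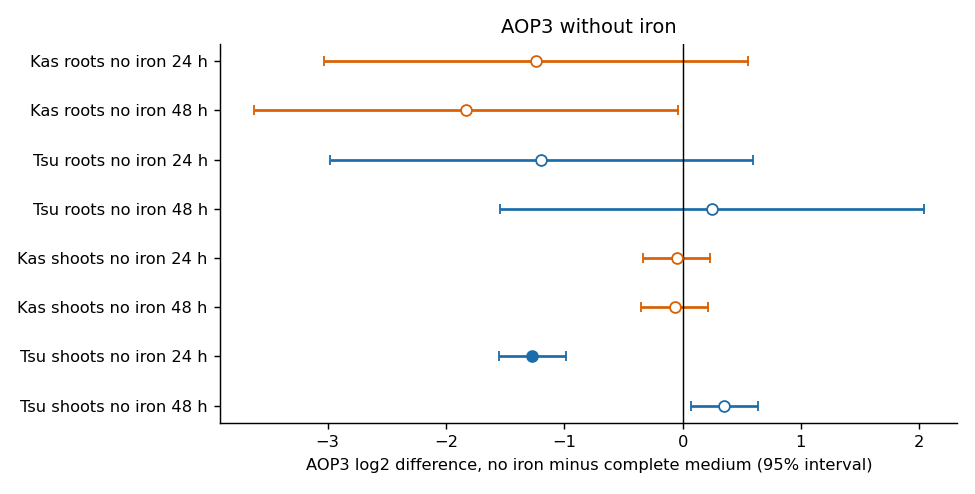
Log2 change of AOP3 without iron against complete medium by ecotype, tissue and time, with 95% intervals from the fit of each tissue. The change in Tsu shoots at 24 h (-1.27, interval -1.56 to -0.98) is the one that passed the test, and the root intervals are far wider than the shoot intervals. The Tsu shoot arrays without iron at 24 h all lie between the ecotypes.

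Other genes of the pathway were read from lists of 73 glucosinolate genes in 8 groups. Besides AOP3, 10 of them had a probe set naming them alone. The other 62 were not analysed here, AOP2 among them. The 10 were AOP1 and AT2G25450 of side-chain modification, BCAT4 of chain elongation, GSTU20 and AT2G31790 of the aliphatic core, UGT74B1 of the shared core, the regulators MYC3 and MYC4, and the transporters GTR1 and GTR2. In roots, limma called 4 of 10 between Kas and Tsu after 24 h without iron (all 4 lower in Kas), 5 after 48 h without iron (1 higher, 4 lower) and 1 on complete medium (higher), beside the 11.4%, 24.7% and 9.86% of all probe sets. In shoots it called 3 (2 higher, 1 lower), 3 (1 higher, 2 lower) and 6 (4 higher, 2 lower) in the same order, beside 20.2%, 36.7% and 33.2%. The median Kas minus Tsu difference of the 10 was -0.23, -0.58 and 0.25 in roots, against -0.04, -0.04 and -0.09 over all tested probe sets. In shoots it was 0.02, -0.01 and 0.06, against -0.07, -0.09 and -0.06. The calls went in both directions in shoots, and mostly toward lower levels in Kas roots without iron. Over all probe sets the root calls without iron were also mostly lower in Kas, 1870 of 2582 at 24 h and 3571 of 5629 at 48 h. Nothing is read from that direction about the pathway.

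AOP1, the cluster's other member and an enzyme of uncertain role in glucosinolate synthesis, differed between the ecotypes in opposite directions by tissue at 48 h without iron. Its log2 level there was 4.67, 4.86 and 4.80 in Kas shoots, against 6.28, 6.0 and 6.14 in Tsu shoots, a difference of -1.36 (SE 0.18, limma adjusted p = 3.82e-06). In roots it was 3.70, 3.95 and 4.07 in Kas, against 2.58, 2.88 and 2.46 in Tsu, a difference of 1.27 (SE 0.25, limma adjusted p = 0.00178). These root values all lie under 5, the cut-off of the filter on dim probe sets, so the root difference rests on dim readings. The ecotypes did not overlap in either tissue, lower in Kas shoots and higher in Kas roots, and the difference between tissues was not tested. In shoots AOP1 was also lower in Kas on complete medium (-1.10, limma adjusted p = 5.63e-05), while at 24 h without iron it differed by -0.41 (limma adjusted p = 0.108). In roots it differed by 0.66 at 24 h without iron and by 0.21 on complete medium, neither passing the test (limma adjusted p = 0.106 and 0.608).

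GSTU20, a glutathione transferase assigned to the aliphatic core pathway, was lower in Kas in every shoot condition. After 48 h without iron it read 7.87, 7.88 and 8.08 in Kas shoots, against 10.46, 10.25 and 10.43 in Tsu shoots, a difference of -2.44 (limma adjusted p = 2.87e-10). The groups were well apart, and the differences were -2.10 on complete medium (limma adjusted p = 2.75e-09) and -1.01 at 24 h without iron (limma adjusted p = 0.000143). In roots it was lower in Kas by -1.86 at 24 h and -1.55 at 48 h without iron (limma adjusted p = 0.00809 and 0.012), the first not called without Kas replicate 2 (limma adjusted p = 0.0526). On complete medium the root difference was 0.05 (limma adjusted p = 0.949).

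BCAT4, the aminotransferase that starts methionine chain elongation, went the other way in shoots from AOP3. It was higher in Kas shoots by 0.30, 0.43 and 0.76 after 24 h and 48 h without iron and on complete medium (limma adjusted p = 0.042, 0.00239 and 6.95e-06). In 1 fit of all 36 arrays BCAT4 lost the shoot calls at 24 h and 48 h without iron (limma adjusted p = 0.506 and 0.247). In roots at 24 h without iron it read 10.56, 8.71 and 8.58 in Kas, against 11.39, 11.57 and 11.52 in Tsu, a difference of -2.21 (limma adjusted p = 0.000581). All Kas root arrays lay below all Tsu root arrays there, and the Kas array nearest to Tsu was replicate 1, between the ecotypes. BCAT4 in roots differed by -0.44 at 48 h without iron and by 0.44 on complete medium, neither passing the test (limma adjusted p = 0.4 and 0.425). AT2G31790, a glycosyltransferase locus, was lower in Kas roots at 24 h without iron (-1.69, limma adjusted p = 0.000485). In shoots it was higher in Kas on complete medium (0.64, limma adjusted p = 0.00017) and at 24 h without iron (0.33, limma adjusted p = 0.0436), while at 48 h without iron it differed by 0.08 (limma adjusted p = 0.637).

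UGT74B1, which glucosylates thiohydroximates of the core pathway, was lower in Kas roots at 24 h without iron (-0.77, limma adjusted p = 0.00123). After 48 h without iron the roots also had lower MYC4, a transcription factor of jasmonate signalling (-1.10, limma adjusted p = 0.00146), AT2G25450 (-1.40, limma adjusted p = 0.0201) and the transporter gene GTR2 (-0.82, limma adjusted p = 0.000203) in Kas. On complete medium MYC4 and GTR2 were higher in Kas shoots (0.35 and 0.44, limma adjusted p = 0.0413 and 0.00792), and GTR1 was higher in Kas roots (0.82, limma adjusted p = 0.0372). MYC3, a relative of MYC4, was called in no ecotype comparison. The call of AT2G25450 was lost without Tsu replicate 3, Kas replicate 1 or Kas replicate 3, and that of MYC4 on complete medium without any array but Tsu replicate 2. That of GTR2 on complete medium was lost without Tsu replicate 1 or with the compared groups alone (limma adjusted p = 0.0546). AT2G25450 was dim in Kas roots at 48 h without iron (2.96 to 3.17). At 24 h without iron the 3 shoot calls, of GSTU20, BCAT4 and AT2G31790, came to 1 without Tsu replicate 1, Tsu replicate 2 or any of the 3 Kas arrays. On complete medium the root call was lost without Tsu replicate 2, Kas replicate 1 or Kas replicate 3, and 2 genes were called without Kas replicate 2.

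**Figure D4:**
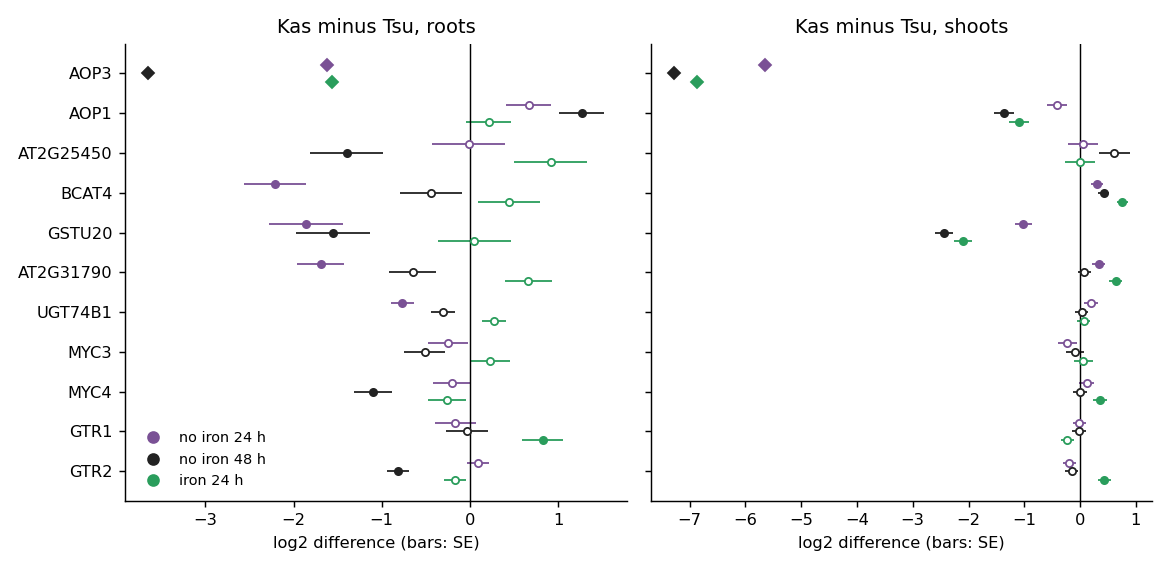
Kas minus Tsu log2 difference of AOP3 and of the 10 other measured glucosinolate genes in the 6 combinations of tissue and medium, with filled points for genes called by limma and AOP3 as a description. AOP3 lies far to the Tsu side in shoots (-5.65 to -7.29), while BCAT4 lies on the Kas side there and AOP1 changes side between roots, where it is dim, and shoots.

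Among the comparisons without iron, 5 of the 10 genes were called in Tsu shoots at 24 h, beside 16.1% of all probe sets, with a median change over the 10 of 0.21 against -0.02 over all tested probe sets. BCAT4 (0.43, limma adjusted p = 0.00554), MYC4 (0.46, limma adjusted p = 0.0188) and GTR2 (0.49, limma adjusted p = 0.00685) rose. GSTU20 (-0.88, limma adjusted p = 0.000511) and AOP1 (-0.64, limma adjusted p = 0.0152) fell along with AOP3. These calls rest on the same 3 arrays between the ecotypes, and 0 of 10 were called with the index as a covariate, 1 in the fit of all 36 arrays, 2 without complete-medium replicate 1 and 3 without replicate 1 of the arrays without iron. Nothing is read from the count with the covariate, which cannot be told from the contrast of these groups.

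In Kas roots at 24 h without iron, 3 of 10 fell beside 1.94% of all probe sets, with a median change over the 10 of -0.55 against 0.03 over all tested probe sets. They were BCAT4 (-1.77, limma adjusted p = 0.0194), GSTU20 (-2.04, limma adjusted p = 0.0211) and AT2G31790 (-1.50, limma adjusted p = 0.0115). With the compared groups alone 0 of 10 were called, in 1 fit of all 36 arrays 5, and without the arrays between the ecotypes 5, the last with 1 complete-medium array left. None of the 10 was called without complete-medium replicate 1 or 3 or without replicate 2 or 3 of the arrays without iron, and 5 were called without complete-medium replicate 2. At 48 h in Kas roots AT2G25450 fell (-1.53, limma adjusted p = 0.0348, 6.73% called), a call lost when any array of the comparison but complete-medium replicate 2 was left out, and 4 were called without that one. The count was 2 with the compared groups alone, 4 in the fit of all 36 arrays and 0 with the index as a covariate, whose scale the 48 h arrays set. In Tsu roots UGT74B1 rose at 24 h (0.71, limma adjusted p = 0.00447, 6.98% called), where all 6 arrays lie between the ecotypes. That call was lost with the compared groups alone (limma adjusted p = 0.0553). In Tsu roots at 48 h limma called 0 (3 at an unadjusted p under 0.05, 1.62% of all probe sets called), or 1 without complete-medium replicate 1. In shoots at 48 h, GTR2 rose in Tsu (0.56, limma adjusted p = 0.0119, 4.34% called). That call was lost without complete-medium replicate 1 or with the compared groups alone (limma adjusted p = 0.126), while 2 genes were called without complete-medium replicate 2. GTR1 rose in Kas (0.43, limma adjusted p = 0.0471, 4.11% called), a call lost when any single array of the comparison was left out. At 24 h limma called 0 of the 10 in Kas shoots (1 at an unadjusted p under 0.05, 1.86% called).

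The genes around AOP3 were read next. Of the 10 loci on each side of AOP3 in the RefSeq gene order (assembly TAIR10.1, used for order and names alone), 8 had a probe set naming them alone. At 48 h without iron, 6 of 8 were called between Kas and Tsu roots (24.7% of all probe sets), or 3 with dim probe sets filtered out, and 3 of 8 between Kas and Tsu shoots (36.7%). The root calls went both ways. AT4G03100 (1.16, limma adjusted p = 0.00141), AOP1 (1.27, as above) and AT4G03020 (0.49, limma adjusted p = 0.0461) were higher in Kas roots. AT4G03010 (-0.76, limma adjusted p = 0.00103), AT4G03030 (-0.67, limma adjusted p = 0.00195) and AT4G03000 (-0.59, limma adjusted p = 0.00259) were lower. Like AOP1, AT4G03010 (3.11 to 4.27) and AT4G03000 (3.41 to 4.29) read under 5 in all these root arrays, so their differences rest on dim readings. The call of AT4G03020 was lost whenever a single array of the comparison was left out.

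In shoots after 48 h without iron, AT4G03100 (0.97, limma adjusted p = 0.000375) and AT4G03020 (0.30, limma adjusted p = 0.0418) were higher in Kas and AOP1 was lower, the call of AT4G03020 being lost without Tsu replicate 3 or any Kas array. On complete medium 3 of 8 were called in shoots (33.2% of all probe sets), with AT4G03020 higher (0.38, limma adjusted p = 0.0137, not called without Tsu replicate 1) and AT4G03010 (-0.82, limma adjusted p = 0.0014) and AOP1 lower in Kas. AT4G03010 read under 5 in all those shoot arrays as well. Roots on complete medium gave 1 of 8 (9.86%), AT4G03100 (0.77, limma adjusted p = 0.0393), and 0 without Tsu replicate 2, Kas replicate 1 or Kas replicate 3. At 24 h without iron limma called 0 of 8 in roots (4 at an unadjusted p under 0.05, 11.4% of all probe sets called) and 0 of 8 in shoots (3 at an unadjusted p under 0.05, 20.2%), or 1 in either tissue without its Kas replicate 1. The locus next to AOP3, AT4G03040, differed by -0.10 in shoots and 0.07 in roots at 48 h without iron (limma adjusted p = 0.449 and 0.84). It read 2.03 to 2.47 in those arrays, under the lower quartile of the arrays (2.72 to 3.05), so a difference could hardly show there. At 48 h without iron the 8 neighbours lay between -1.36 and 1.27 over both tissues, beside -3.65 in roots and -7.29 in shoots for AOP3. Nothing is read from the larger size of the AOP3 difference, since the gene was chosen for it.

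**Figure D5:**
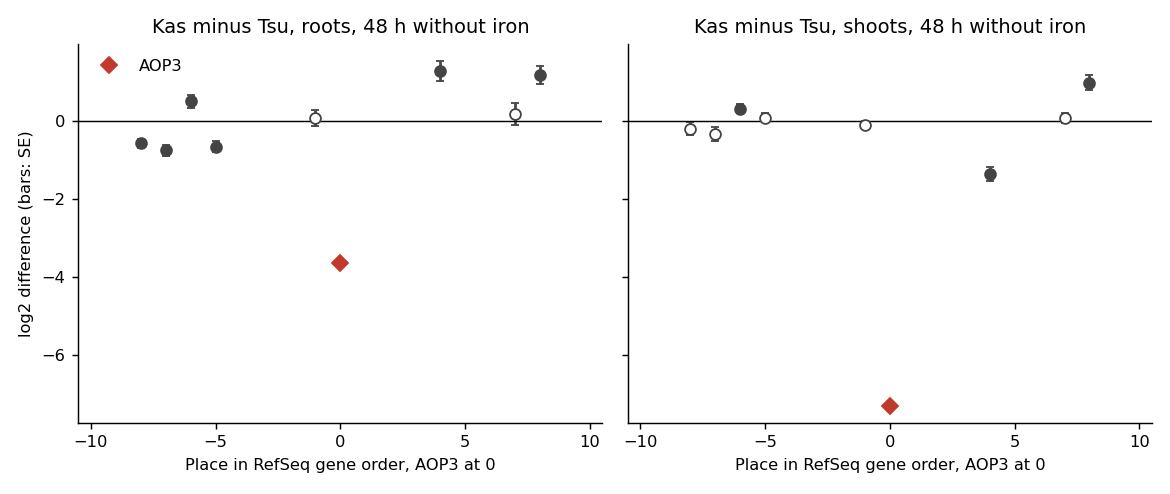
Kas minus Tsu log2 difference after 48 h without iron, in roots and in shoots, of AOP3 and of the 8 measured loci among the 10 on each side, placed by gene order. AOP3, chosen for its difference between the ecotypes, stands at -3.65 in roots and -7.29 in shoots, and the neighbours lie between -1.36 and 1.27.

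The genes most like AOP3 were those with the highest Pearson correlation over the 36 arrays, given as a description, since all arrays share the ecotype and tissue differences. CSA1, a resistance-type receptor gene on chromosome 5, came first (r = 0.975), followed by AT2G23480 (0.960), AT3G57470 (0.948), AT2G21195 (0.940), AT3G44430 (0.938), AT3G60980 (0.930), AT5G39020 (0.923) and AT3G47250 (0.923). CSA1 ran from 2.57 to 5.75 in Kas roots (median 3.09), against 4.38 to 6.81 in Tsu roots (median 6.07). It ran from 2.46 to 3.05 in Kas shoots (median 2.62), against 5.72 to 8.31 in Tsu shoots (median 7.88). Like AOP3, it was dim in all Kas shoots and overlapped between the ecotypes in roots. The lowest correlations were those of AT1G33680 (-0.938), AT3G47540 (-0.898), AT3G43740 (-0.888) and AT1G59710 (-0.885).

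Within the 18 root arrays the most alike were CSA1 (0.985), AT2G04800 (0.979), AT2G03470 (0.976), AT5G59100 (0.975) and AT2G16005 (0.973). Within the 18 shoot arrays they were AT1G59960 (0.997), AT3G22240 (0.995), AT3G62400 (0.994), AT3G47250 (0.992) and AT3G14600 (0.992). CSA1 was first over all arrays and within roots, and AT3G47250 was among the leading genes over all arrays and within shoots. AT3G22240 followed AOP3 in shoots, with 5.40 to 5.89 in Kas and 11.2 to 12.2 in Tsu, but not in roots, with 9.26 to 9.66 in Kas and 9.37 to 10.23 in Tsu. No glucosinolate gene of the lists was among these genes. Only 10 besides AOP3 could be among them, so nothing is read from this about the pathway.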

How the data were processed

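The authors deposited a log2 level for each probe set of a 1-colour Affymetrix array, a scale read from the values. How the authors corrected, summarised and normalized them is not given in the sources used here. All 36 arrays were mapped to 12 groups of 3 by their titles. Array medians ran from 4.91 to 5.14. Precision is limited by the number of arrays, and without detection calls a dim reading is not absence. Control probe sets (64) were left out and 22746 probe sets tested, named through the array's annotation updated to RefSeq symbols (TAIR10.1, matched for 13436 of 13513 probe sets naming 1 gene).

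Comparisons used limma 3.58.1 in R 4.3.3 (lmFit, eBayes, group means, 18 arrays of each tissue in 1 fit, two-sided, Benjamini-Hochberg over all probe sets, threshold 0.05), tested on simulated data. The ecotype index is the median position over 300 probe sets. AOP3, the lists and the tests were chosen with earlier results of these data known. Named genes are AOP3, the 8 most and 4 least correlated genes over 36 arrays, the 5 most correlated within each tissue, measured loci among 10 on each side, and glucosinolate list members. Same-numbered replicates did not deviate together (r from -0.391 to 0.270), so numbers were not used as pairs. Alternatives were the arrays fitted, a replicate block, quantile normalization, a filter on dim probe sets (highest group mean of 5), the index as a covariate, index sizes of 100 and 1000, medians for means, other correlations and leaving out each array; the linear scale and the fit without arrays between the ecotypes were added after seeing the data.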

Additional observations from a re-analysis of the deposited data

Results flagged for a closer look

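The response of AOP3 to 24 h without iron in shoots differed between the ecotypes by 1.22 on the log2 scale (Kas change minus Tsu change, limma adjusted p = 0.000241), with a change of -0.05 in Kas shoots and -1.27 in Tsu shoots. Kas shoots were dim throughout (2.97 to 3.39), so a fall could hardly show there. The 3 Tsu arrays without iron had an ecotype index of 0.422 to 0.512, and the fits given above cannot tell the part of this shift in the result. In Tsu shoots AOP3 was below complete medium in every array at 24 h (-1.27) and above it in every array at 48 h (0.35), both against the same 3 complete-medium arrays. The difference between times was not tested.

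Among the other glucosinolate genes, some had all Kas arrays on one side of all Tsu arrays in roots and on the opposite side in shoots, and the difference between tissues was not tested for any of them. How many of all probe sets do the same was not counted, so nothing is read from it about the pathway. At 24 h without iron, Kas minus Tsu was -2.21 in roots and 0.30 in shoots for BCAT4, -1.69 and 0.33 for AT2G31790, and -0.77 and 0.20 for UGT74B1. At 48 h without iron it was -0.44 in roots and 0.43 in shoots for BCAT4, and 1.27 and -1.36 for AOP1. The shoot difference of UGT74B1 and the 48 h root difference of BCAT4 did not pass the test (limma adjusted p = 0.273 and 0.4). Of the 24 h root arrays, 1 of 3 Kas and 3 of 3 Tsu arrays lay between the ecotypes, as did 3 of 3 Tsu shoot arrays.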

How the results depend on the processing

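With the ecotype index as a covariate, the AOP3 change without iron was 0.14 (Kas roots, 24 h), 0.56 (Kas roots, 48 h), -2.38 (Tsu roots, 48 h), 0.13 (Kas shoots, 48 h) and 0.30 (Tsu shoots, 24 h), each opposite in sign to the value above. So were the ecotype differences in response, at 0.40 and 2.94 in roots at 24 h and 48 h and -0.31 in shoots at 24 h, and GSTU20 in Tsu shoots at 24 h (0.82). Nothing is read from the 48 h values among these, since the 48 h arrays set the index scale. The same holds for the shoot values at 24 h, since the index sets the compared Tsu groups wholly apart. Without the arrays between the ecotypes the Kas root change at 48 h was 0.52, with 1 complete-medium array left. In 1 fit of all 36 arrays the Tsu shoot change at 24 h (-1.27) and its ecotype difference (1.22) lost their calls at unchanged values. That fit shares 1 spread between the tissues, whose own fits gave AOP3 changes an SE of 0.85 in roots and 0.14 in shoots. With all 36 arrays the glucosinolate genes called between ecotypes were 2 in roots on complete medium and 1 in shoots at 24 h without iron. With the compared groups alone, 8 were called in roots at 48 h without iron and 0 on complete medium, and with dim probe sets filtered 3 at 48 h. That filter takes AOP1 and AT2G25450 out of the root fit. Quantile normalization gave 0.015 for the root ecotype difference in response at 24 h and -7.15 for AOP3 between shoots at 48 h without iron. It shifted array medians by -0.131 to 0.0992. Leaving out single arrays, the AOP3 change ran from -3.01 to -1.20 (Kas roots, 48 h), -0.0087 to 0.57 (Tsu roots, 48 h), -0.11 to 0.069 (Kas shoots, 24 h) and -0.13 to 0.053 (Kas shoots, 48 h). The root difference in response at 24 h ran from -1.22 to 0.59. Roots minus shoots in Kas at 24 h without iron ran from -0.16 to 1.60. The glucosinolate counts ran from 0 to 2 (roots, complete medium) and 1 to 3 (shoots, 24 h without iron). The Tsu shoot fall at 24 h kept its call without each array (-1.37 to -1.09). With the replicate block that fall was -1.27 (limma adjusted p = 5.62e-07) and the ecotype difference was 1.22 (9.26e-05). The block changed no AOP3 call and ended 3 calls of single genes, BCAT4 between shoots at 24 h without iron (limma adjusted p = 0.0559), MYC4 between shoots on complete medium (0.0535) and GTR1 in Kas shoots at 48 h (0.0672). Of the 8 genes most like AOP3, 5 were shared with a Spearman ranking and 3 with a ranking over group means. The causes were not tested.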
